A study of Trichoderma reesei with 15 samples.

Results

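The genes described here sit at the ends of identifier series in Trichoderma reesei, a filamentous fungus used in industry to produce cellulases. Each gene identifier holds Tr, a letter A to G, a running number and W or C. For each of the 7 letters the 20 lowest and the 20 highest numbers were taken, which gave 280 end positions. Genes with a deposited length of 6000 or more (7) and genes with 0 counts in all libraries (34, of which 1 was also long) were left out. This left 240 end genes, of 10879 genes in the table, which were set against the 10235 other genes of the same letters under the same limits. These other genes are called remaining genes below. The longest end gene had a length of 4596, and the shortest gene left out for its length had 6255.

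Neither the letters nor the numbers are explained in the labels or files used here, and the identifiers matched no gene names, so roles of single genes cannot be given. In many sequenced fungi, systematic gene numbers run along a chromosome, and W and C are used for its Watson and Crick strands. The outermost stretches of fungal chromosomes, called subtelomeres, are known as regions where transcription is often repressed by chromatin, where genes vary between strains and where clusters of genes for secondary metabolites are common. Whether the ends of these number series lie at the ends of chromosomes was not tested. Protein phosphatases of the PP2A and PP5 types remove phosphate groups from serine and threonine residues, and PP2A works as a complex of a catalytic, a scaffold and a regulatory subunit.

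RNA was sequenced from mycelium grown on cellulose in constant darkness, for 96 h at 28 °C, in 15 libraries of 5 groups. The groups were QM6aΔmus53Δpp2A (4 libraries, tag DD1), a Δpph5 strain of the same background (3 libraries, tag DD1), a Δpph5-2 strain (4 libraries, tag DD3) and the parent QM6aΔmus53 (2 libraries with each tag). All strains, parents included, lack mus53, a gene of DNA repair by end joining whose loss favours gene replacement, so no group is a fully wild type QM6a. The meaning of the tags, the number of independent clones per deletion and whether replicates came from separate cultures are not stated in the labels, and p-values therefore measure only the spread between these libraries. Labels conflicted for Δpp2A replicate 1 (type WT) and for the Δpph5-2 libraries (strain Δpph5 as source), and titles decided the group. The transcripts of the deleted genes were not analysed here, since the identifiers pair with no names. Library totals were 7862390 to 11134647 counts in Δpp2A, 6026511 to 9842288 in Δpph5 and 8990198 to 13572121 in Δpph5-2, against 9310996 and 9906943 in DD1 parents and 9733138 and 10499078 in DD3 parents.

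Genes at the ends more often lacked a count than other genes. Of the 280 end positions, 12.1% had 0 counts in all 15 libraries, against 2.78% of the genes at other positions. Of these 34 genes without a count, 31 lay among the 10 outermost numbers of an end. The share without a count was 30% at ranks 1 to 5 from the end, 14.3% at ranks 6 to 10, 2.86% at ranks 11 to 15 and 1.43% at ranks 16 to 20. It was 2.38% at ranks 21 to 50 and 2.56% at ranks over 200, so the excess of genes without a count ended near rank 10. The low end of series F held 11 of these genes, at its outermost 11 numbers, and kept only 9 end genes. No other end had more than 3. They had a median length of 335 against 462 for genes without a count elsewhere, and 18 of the 34 (52.9%) were under 500, against 51.5% of genes without a count elsewhere. The 240 end genes with a count were not short, with a median length of 1179 against 1125 for the remaining genes and 7.08% against 17.2% under 500. In a single library at these depths, a count of 0 allows up to 3 counts. This is between 0.213 and 0.621 CPM (counts relative to the TMM-scaled library total) depending on the library. For genes with 0 counts in all 15 libraries the limit on the mean level is lower than that. These limits cover counting error only, since reads of overlapping genes or near-identical copies may not have been counted.

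**Figure D1:**
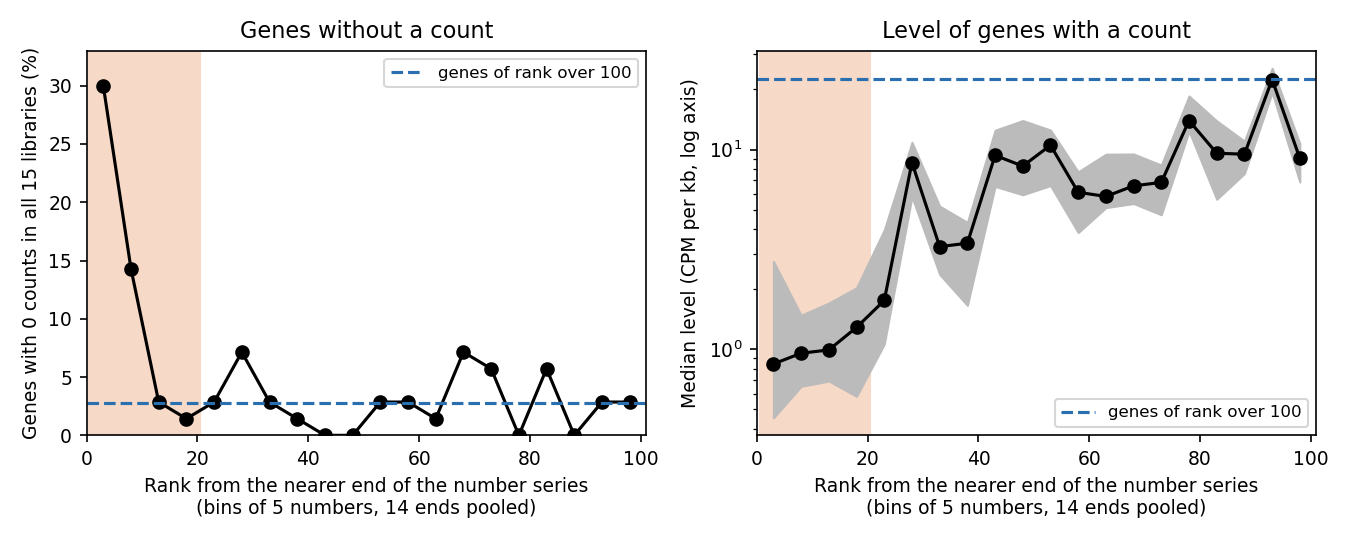
The left panel plots the percentage of genes with 0 counts in all 15 libraries, and the right panel the median level in CPM per kb (log axis) of genes with a count, against the rank from the nearer end in bins of 5 numbers with the 14 ends pooled. Points in the right panel are the median over libraries of each library's median and the grey band is the range over libraries, shading marks the 20 outermost numbers and the dashed line is the value for genes of rank over 100. Genes without a count were most frequent at ranks 1 to 10, whereas the level stayed low through rank 25.

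End genes with a count were transcribed at low levels. Levels are given as TMM-scaled CPM per kb of deposited length, averaged over the 15 libraries. The median was 1.46 CPM per kb in the end genes and 22.4 CPM per kb in the remaining genes, a ratio of 15.3 between the higher and the lower. Single end genes ranged from 0.00439 to 2509 CPM per kb. Under 1 CPM per kb lay 43.8% of the end genes against 17.3% of the remaining genes, and at least 10 CPM per kb was reached by 25% against 64.7%. In each library on its own, the median was 0.612 to 1.48 CPM per kb in the end genes and 19.5 to 21.4 CPM per kb in the remaining genes. These ranges were far apart in all 15 libraries. The end genes had the lower median in all 7 letters, with medians of 0.616 (C) to 2.86 (A) CPM per kb against 13.6 (F) to 25.5 (E) CPM per kb in the remaining genes.

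The boundary at 20 numbers was not a boundary in the data. The median level over genes was 1.85 CPM per kb at ranks 16 to 20 and 2.34 CPM per kb at ranks 21 to 25. Further in, it was 5.24 CPM per kb over the whole of ranks 21 to 50, 10.3 at ranks 51 to 100, 14.1 from there to rank 200 and 25.5 CPM per kb beyond. The median level therefore climbed over the outer 200 numbers of a series. Detection followed the same order: 51.2% of the end genes had a count in all 15 libraries, against 80.9% of the remaining genes. The filter on low counts kept 162 of the 240 end genes (67.5%) and 84.8% of the remaining genes. The other 78 end genes were not tested, and counts over those tested do not describe all 240, since a gene that was high in 1 group alone could pass.

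The ends differed among themselves. Median levels per end were between 0.495 and 3.42 CPM per kb at 12 of the 14 ends, and were 13.0 CPM per kb at the low end of F and 12.1 CPM per kb at the low end of G. Of the 12 end genes of at least 100 CPM per kb, 7 belonged to G, 4 of them at its low and 3 at its high end. The other 5 lay 1 each at the high ends of B, C, D and E and at the low end of F. The outermost end gene kept at each end, at rank 1 for 5 ends and as deep as rank 12, was low throughout. Of these 14 genes, 7 averaged under 1 CPM, and the highest, TrE1304C, averaged 7.51 CPM. TrA0001W, at rank 1 of A, was left out for its length and had group means from 35.0 to 898 CPM. TrB0001W, the first number of its series, had 2 counts, both in 1 library.

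The 3 end genes of highest level were TrG1206C, TrG1195C and TrG0019C, at 2509, 1098 and 764 CPM per kb. They held 5.66%, 3.25%, 52.3% and 6.79% of the end gene counts in the Δpp2A libraries, 60.0 to 67.8% in Δpph5 and 70.0 to 72.4% in Δpph5-2. In the parents they held 52.0% and 63.3% in DD1, and 57.7% and 45.7% in DD3. These genes were thus a small part of the end gene counts in 3 Δpp2A libraries and a large part elsewhere. All end genes together took 0.308%, 0.288%, 0.685% and 0.305% of the counts in the 4 Δpp2A libraries and 1.18%, 1.02% and 1.03% in the Δpph5 libraries. The end genes took 0.904% and 0.970% in the DD1 parents. In DD3 they took 1.19%, 1.40%, 1.57% and 1.78% in the Δpph5-2 libraries, against 1.05% and 0.878% in the parents. All 4 Δpp2A libraries lay below all others, with replicate 3 closest to them, and all 4 Δpph5-2 libraries lay above all others. The share averaged 0.396 ± 0.193% in Δpp2A (SD, n = 4), 1.08 ± 0.0913% in Δpph5 (SD, n = 3) and 0.937 ± 0.0471% in the DD1 parent (SD, n = 2). Without the 3 most abundant genes it was 0.278 to 0.327% in Δpp2A and 0.382 to 0.411% in Δpph5, against 0.434% and 0.356% in the DD1 parents. It was then 0.357 to 0.492% in Δpph5-2 against 0.444% and 0.477% in the DD3 parents. Without these genes the Δpp2A libraries were still below all others, but Δpph5-2 overlapped with its parent.

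**Figure D2:**
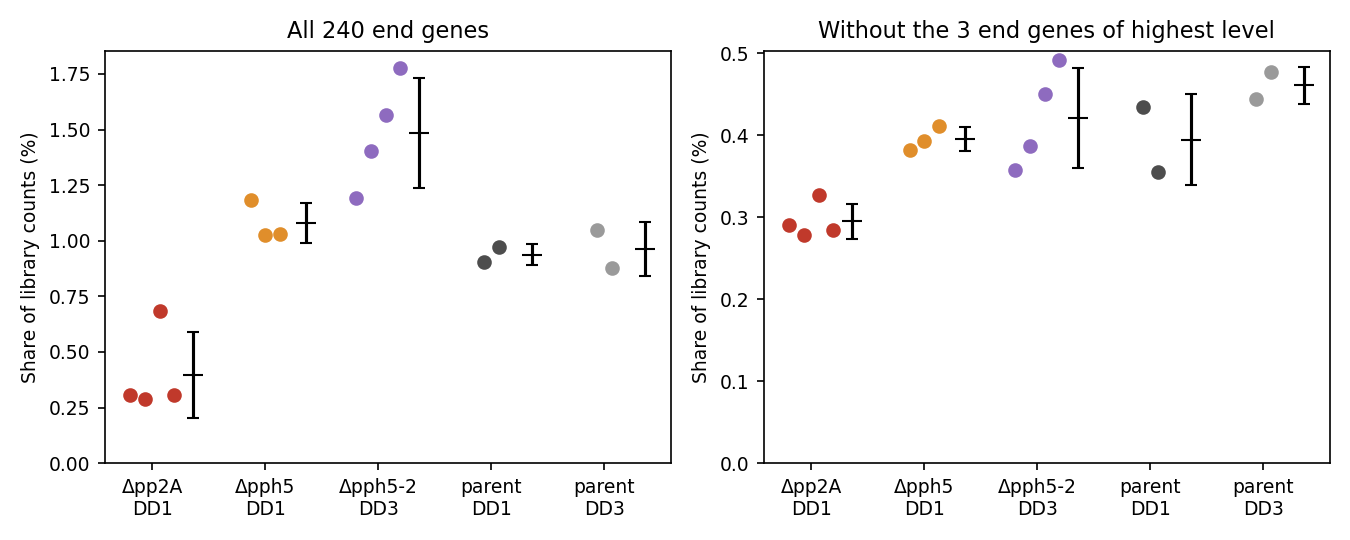
Share of each library's counts (%) in the 240 end genes (left) and in the end genes without the 3 of highest level (right), by group. Points are libraries, and bars beside them give the mean and SD. The 4 Δpp2A libraries are lowest in both panels, and Δpph5-2 is above its parent only with the 3 abundant genes included.

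In edgeR's test, end genes were called for the deletion of pp2A and for neither pph5 type deletion. Called means a Benjamini-Hochberg adjusted p under 0.05 in edgeR's quasi-likelihood test over 8912 genes. In Δpp2A against the DD1 parent, 31 end genes were lower and 15 higher of 162 tested, or 28.4%, while 18.7% of all genes tested were called. Lower genes made up 19.1% of the end genes tested and 10.7% of all genes tested, and higher genes 9.26% and 7.94%. Of the 46 called end genes, 39 differed at least 2-fold. The median log2 fold change was −0.58 over the end genes and −0.03 over all genes tested, and 100 of the 162 end genes were below 0. Regardless of calls, 53.7% of the end genes and 20.7% of the remaining genes differed at least 2-fold. Such an excess was not particular to Δpp2A. It was 27.2% against 7.04% for Δpph5 and 30.9% against 8.85% for Δpph5-2, each against the parent of its tag. Without DD1 parent replicate 1 the count was 19 lower and 7 higher, and the median was −0.13.

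Lower calls were frequent at all levels. Among end genes of at least 10 CPM per kb, 15 of 60 were lower (25%) and 8 higher (13.3%), against 12.0% and 7.77% of the remaining genes in that range. Between 1 and 10 CPM per kb, 17.6% of the end genes tested were lower against 6.37% of the remaining genes. Under 1 CPM per kb these shares were 10.7% and 5.09%. Lower calls were more frequent at the ends than in the remaining genes in all 7 letters, and higher calls in 3 letters. By end, 10 of the 14 ends had more lower than higher genes, 3 had more higher ones and 1 had equal numbers. The median log2 fold change was below 0 at only 8 of the 14 ends. In letter D it was 0.41 over the end genes tested, with 4 higher and 3 lower. By strand letter, 20.3% of the W genes and 18.2% of the C genes tested were lower.

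By distance from the end, the outermost genes had the lowest median. At ranks 1 to 5, 7 of 28 tested genes were lower and 0 higher, with a median log2 fold change of −1.24. This does not cover TrA0001W at rank 1 of A, which was left out for its length. It was higher, at 4.57 (edgeR adjusted p = 9.29e-07). At ranks 6 to 10, 7 of 42 were lower and 7 higher, with a median of −0.29, and the medians were −0.37 at ranks 11 to 15 and −0.33 at ranks 16 to 20. A difference by distance was not tested. Ranks 21 to 25 had a median of −0.33, with 6 lower and 2 higher of 45, so the last end genes and the first genes beyond the boundary were alike. Over the whole of ranks 21 to 50 the median was 0.04, with 35 lower and 31 higher of 325. The outermost end gene of an end is the first one kept there, which lay at rank 1 at only 5 ends and as deep as rank 12. Of all genes tested, 18.7% were called and 10.7% were lower. Among the outermost end gene of each end, 8 were tested and 4 were called, all of them lower. These were TrE1304C, at −3.91 ± 0.50 (SE, adjusted p = 3.92e-04), TrC1580C at −2.16 (adjusted p = 0.00642), TrD0002C at −2.35 (adjusted p = 0.0131) and TrF1209W at −2.92 (adjusted p = 0.0358), all in the edgeR test.

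Some called genes lay next to each other. Of the 46, 16 (34.8%) stood in 7 runs of neighbouring numbers that were called in the same direction, 5 runs lower and 2 higher. Among the remaining genes, 397 of the 1605 called (24.7%) had a neighbour called in the same direction, and the difference between these shares was not tested. More of the end genes tested were called (28.4%) than of the remaining genes (18.5%). Called neighbours are more frequent where more genes are called, so the 2 shares are not directly comparable. The longest runs had 3 genes. TrD0016C, TrD0017C and TrD0018W were higher, with log2 fold changes from 2.35 to 6.66, and TrG0014C, TrG0015C and TrG0016W lower, from −8.83 to −0.91. At the high end of C, TrC1573C and TrC1574W were higher, with log2 fold changes of 3.95 and 5.18, and the next numbers, TrC1575C and TrC1576W, were lower, with −4.89 and −3.63. The other runs were pairs of lower genes, TrB0008C with TrB0009W, TrB0014W with TrB0015C, and TrD1437W with TrD1438C. The genes of these runs were named after their values were seen. Neighbouring genes may share reads where they overlap, which cannot be checked without coordinates.

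**Figure D3:**
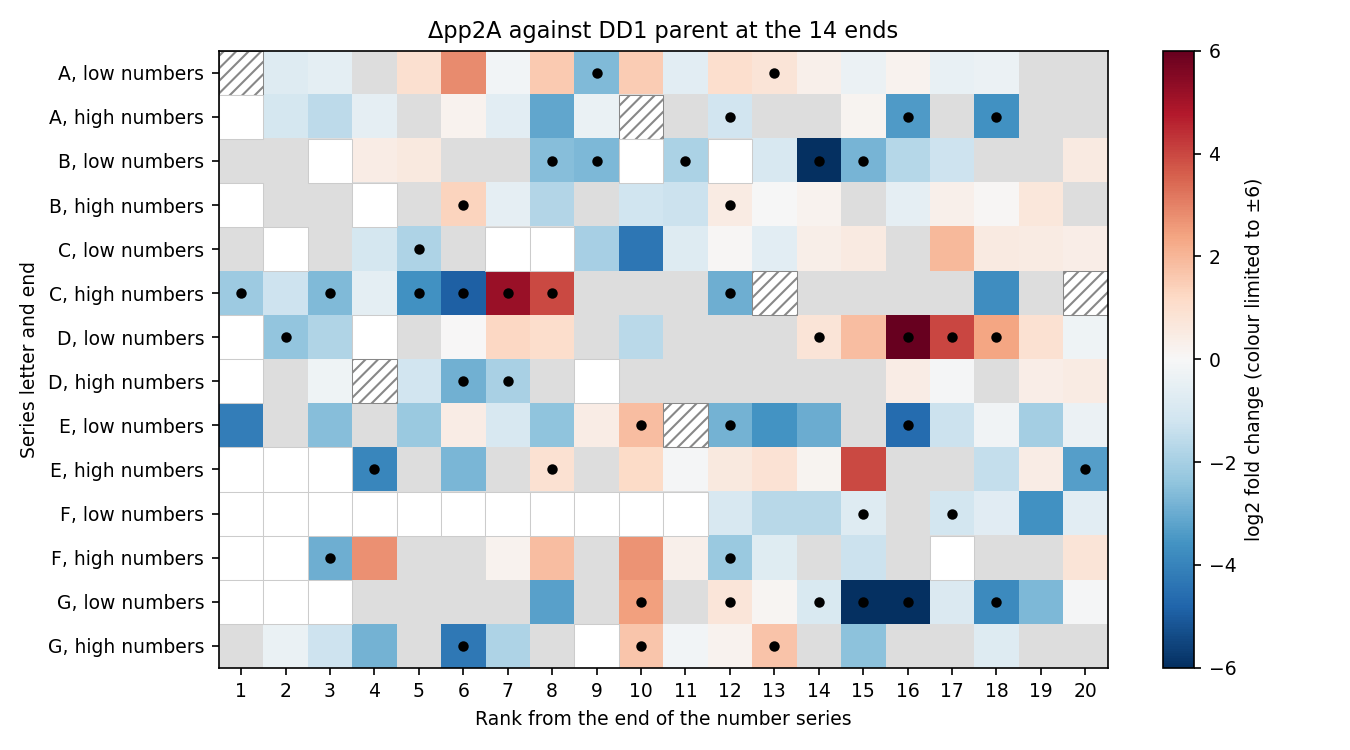
Map of the 14 ends (rows) by rank from the end (columns, outermost at 1). Colour is the log2 fold change of Δpp2A against the DD1 parent, limited to ±6, dots mark an adjusted p under 0.05, grey genes were not tested, white ones had 0 counts in all libraries and hatched ones were left out for length. Blue dotted cells (31) outnumber red dotted ones (15), and neighbouring dots of the same colour form 7 runs.

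TrD0016C (length 852) showed the largest increase by the naming rule. It had 141, 153, 134 and 135 TMM-scaled CPM in the Δpp2A libraries, against 1.89 and 0.913 CPM in the DD1 parents. The Δpph5 libraries had 0.875, 1.24 and 0.674 CPM. The Δpph5-2 libraries had 4.69, 4.60, 0.457 and 1.81 CPM, and the DD3 parents 2.53 and 1.06 CPM. All Δpp2A libraries were above 130 CPM and no other library reached 5 CPM. The log2 fold change was 6.66 ± 0.77 against the parent (SE, edgeR adjusted p = 1.93e-04) and 7.27 ± 0.67 against Δpph5 (adjusted p = 2.63e-05). The difference between the Δpp2A and the Δpph5-2 responses was 5.94 ± 0.94 on the log2 scale (adjusted p = 0.00558, edgeR), and it was not called without DD3 parent replicate 1 (adjusted p = 0.0700).

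Its neighbour TrD0017C (length 972) had 25.3, 17.6, 14.8 and 23.3 CPM in Δpp2A, against 1.76 and 0.812 CPM in the DD1 parents. The Δpph5 libraries had 3.30, 2.28 and 2.43 CPM, the Δpph5-2 libraries 1.33 to 3.19 CPM and the DD3 parents 0.770 and 0.676 CPM. Again the 4 Δpp2A libraries stood above all others. Its log2 fold change was 3.98 ± 0.44 against the DD1 parent (SE, edgeR adjusted p = 1.40e-04) and 2.90 ± 0.34 against Δpph5 (adjusted p = 1.37e-04).

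TrG0010C (length 984), at the low end of another series, rose by less. It had 14.3, 19.7, 15.9 and 16.6 CPM in Δpp2A, against 1.65, 1.86 and 0.809 CPM in Δpph5. The DD1 parents had 4.16 and 1.83 CPM, and all libraries outside Δpp2A were under 5 CPM. It rose by 3.53 ± 0.43 on the log2 scale against Δpph5 (SE, edgeR adjusted p = 1.72e-04) and 2.48 ± 0.47 against the DD1 parent (adjusted p = 0.00416). Its response differed from that of Δpph5-2 by 3.29 ± 0.63 (adjusted p = 0.0135, edgeR). This was not called without DD3 parent replicate 1 (adjusted p = 0.0692, edgeR) or without DD3 parent replicate 2 (adjusted p = 0.0535).

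TrG1197C (length 462) was an abundant end gene that rose in Δpp2A. It had 668, 542, 562 and 631 CPM in Δpp2A, against 192 and 180 CPM in the DD1 parents. The Δpph5 libraries had 207, 185 and 214 CPM, the Δpph5-2 libraries 213, 247, 325 and 262 CPM and the DD3 parents 158 and 90.3 CPM. The Δpp2A libraries were above all others, and those of Δpph5-2 were all above their parents. The log2 fold change was 1.69 ± 0.22 for Δpp2A (SE, edgeR adjusted p = 3.99e-04), whereas the value of 1.07 for Δpph5-2 did not pass the test (adjusted p = 0.279). The 2 responses differed by 0.62 ± 0.29, which did not pass either (adjusted p = 0.33, edgeR).

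TrC1575C and TrG0018C were the largest decreases by the naming rule in Δpp2A against Δpph5. TrC1575C (length 1605) had 3.70, 2.55, 19.1 and 5.54 CPM in Δpp2A, against 122, 225 and 201 CPM in Δpph5. The DD1 parents had 177 and 284 CPM, the Δpph5-2 libraries 82.7 to 467 CPM and the DD3 parents 347 and 473 CPM. Every Δpp2A library was below every other one, with replicate 3 the highest of the 4. The log2 fold change was −4.55 ± 0.74 against Δpph5 (SE, edgeR adjusted p = 0.00117) and −4.89 ± 0.78 against the DD1 parent (adjusted p = 0.00151). TrG0018C (length 1422) had 26.4, 11.7, 128 and 26.8 CPM in Δpp2A, against 832, 596 and 543 CPM in Δpph5. The DD1 parents had 523 and 822 CPM and the DD3 libraries 512 to 1230 CPM. Replicate 3 of Δpp2A was again the highest of its group and still below all others. The log2 fold change was −3.76 ± 0.67 against Δpph5 (SE, edgeR adjusted p = 0.00202), and −3.80 ± 0.70 against the DD1 parent (adjusted p = 0.00381). The response differed from that of Δpph5-2 by −4.33 ± 1.06 (adjusted p = 0.0443, edgeR), a call lost in 11 of the 15 fits that left out 1 library, with adjusted p up to 0.218.

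The 3 most abundant end genes were low in 3 of the 4 Δpp2A libraries and intermediate in replicate 3. TrG1206C had 77.0, 48.1, 1618 and 96.9 CPM in Δpp2A, against 2877 and 3625 CPM in the DD1 parents. The Δpph5 libraries had 3640 to 4831 CPM, the Δpph5-2 libraries 5397 to 7998 CPM and the DD3 parents 3559 and 2360 CPM. The Δpp2A libraries were below all others, and those of Δpph5-2 above all others. With all libraries the log2 fold change was −2.82 ± 1.04 against the DD1 parent and was not called (SE, edgeR adjusted p = 0.0780), and it was −3.16 against Δpph5 and called (adjusted p = 0.0299). Without replicate 3 of Δpp2A it was −5.46 against the DD1 parent and called (adjusted p = 2.35e-06, edgeR). Replicate 3 was singled out by its values in this same gene, and leaving it out removes most of the spread within Δpp2A. This p-value is therefore no support for a decrease.

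TrG1195C had 43.6, 20.2, 816 and 44.7 CPM in Δpp2A, against 1152 and 1384 CPM in the DD1 parents. TrG0019C had 32.2, 13.3, 744 and 39.0 CPM in Δpp2A, against 1486 and 1170 CPM in the DD1 parents. In both genes replicate 3 was more than 10-fold above the other 3 Δpp2A libraries. For TrG1195C the Δpph5 libraries had 1486 to 1701 CPM and the Δpph5-2 libraries 1672 to 3177 CPM, with 1491 and 942 CPM in the DD3 parents. For TrG0019C these were 1230 to 2320 CPM in Δpph5 and 771 to 2253 CPM in Δpph5-2, with 1440 and 764 CPM in the DD3 parents. All Δpp2A libraries were below all others in both genes, but for TrG0019C replicate 3 was close to the lowest DD3 parent, and Δpph5-2 overlapped with Δpph5 in both. Their log2 fold changes were −2.46 and −2.68 against the DD1 parent, neither called (edgeR adjusted p = 0.119 for each). Without replicate 3 they were −5.13 (adjusted p = 1.11e-05, edgeR) and −5.56 (adjusted p = 1.13e-04). Here too replicate 3 was singled out by the tested values, so the p-values without it are no support. Against Δpph5 they were −2.79 (adjusted p = 0.0487) and −3.15 (adjusted p = 0.0450). TrG0022C, which lies 2 numbers inside the boundary and was chosen after its values were seen, had 203, 117, 4494 and 297 CPM in Δpp2A, against 7898 and 14236 CPM in the DD1 parents. What sets replicate 3 apart was not tested.

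TrG0015C and TrG0016W differed widely within groups, parents included. TrG0015C (length 537) had 0.0786, 0, 0.412 and 1.46 CPM in Δpp2A, against 432 and 7.20 CPM in the DD1 parents. The Δpph5 libraries had 1.17, 375 and 352 CPM, the Δpph5-2 libraries 0, 0, 14.5 and 231 CPM and the DD3 parents 380 and 547 CPM. High and low libraries occurred in both deletions of pph5 type and in the DD1 parent, while all Δpp2A libraries were low. TrG0016W (length 1797) had 0.315, 0.555, 5.61 and 3.55 CPM in Δpp2A, against 997 and 19.99 CPM in the DD1 parents. The Δpph5 libraries had 3.21, 752 and 731 CPM, the Δpph5-2 libraries 0.408, 1.20, 49.5 and 516 CPM and the DD3 parents 741 and 936 CPM. In both genes the same libraries were high, and the highest parent exceeded the lowest 76.0-fold and 49.9-fold. The log2 fold changes were −8.83 ± 2.78 (SE, edgeR adjusted p = 0.0453) and −7.65 ± 2.47 (adjusted p = 0.0495). Without DD1 parent replicate 1 they were −3.91 (adjusted p = 0.509) and −2.98 (adjusted p = 0.532), so these calls rest on that library.

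**Figure D4:**
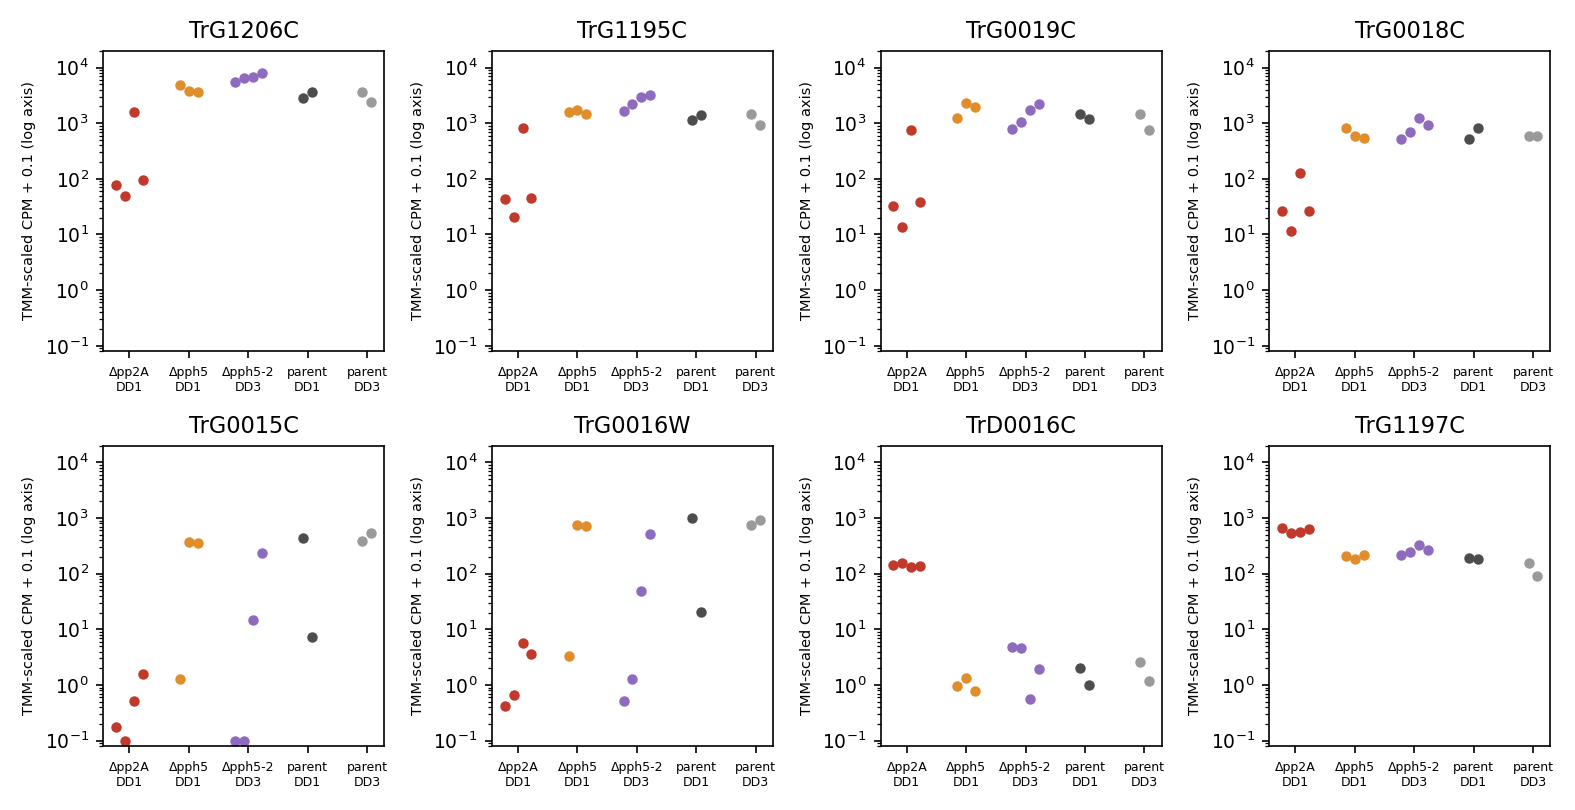
TMM-scaled CPM plus 0.1 (log axis) of 8 end genes in each of the 15 libraries, by group, with each point a library. In the upper row Δpp2A replicate 3 lies above the other Δpp2A libraries and below all other groups. In the lower row TrG0015C and TrG0016W are split within groups, and TrD0016C and TrG1197C are highest in all 4 Δpp2A libraries.

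TrG0014C to TrG0019C, a stretch chosen after its values were seen, form 6 numbers at the low end of G with levels from 24.9 to 764 CPM per kb. All 6 had log2 fold changes below 0 in Δpp2A against the DD1 parent, from −8.83 to −0.86. The next numbers outward were not lower, with TrG0013W at 0.12 and TrG0012W at 0.70 (edgeR adjusted p = 0.0140). Within the stretch, TrG0014C, TrG0015C, TrG0016W and TrG0018C were called, while TrG0017C (−0.86, adjusted p = 0.137) and TrG0019C (−2.68, adjusted p = 0.119) were not in the edgeR test. The stretch thus held genes that moved in all Δpp2A libraries and genes whose call changed when a single library was left out.

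Against Δpph5, which was compared within tag DD1, more end genes were called than against the parent. In Δpp2A against Δpph5, 49 end genes were lower and 18 higher of 162 tested (41.4%), while 33.8% of all genes tested were called. Lower genes made up 30.2% of the end genes tested and 19.6% of all genes tested, and higher genes 11.1% and 14.1%. The median log2 fold change was −0.53 over the end genes and −0.02 over all genes tested. With scaling by library size alone the split was 35 lower and 29 higher, and without Δpph5 replicate 3 it was 30 lower and 13 higher. The Δpp2A libraries enter both this comparison and that with the parent, so the calls are not independent. All 4 Δpp2A libraries were below all 11 other libraries in 27 of the 240 end genes (11.2%), against 7.89% of all genes with a count. They were above all others in 13 end genes (5.42%), against 8.33% of all genes with a count. In 32 end genes (13.3%) all 4 Δpp2A libraries had 0 counts, against 3.23% of the remaining genes. For the pph5 type deletion with tag DD3, also of 4 libraries, this held for 12 end genes (5%) and 2.71% of the remaining genes. Of the 240 end genes, 42 had a total under 15 counts over all libraries, where a group without counts can arise from low level alone. These shares therefore cannot show lower transcription in Δpp2A.

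Neither pph5 type deletion gave end genes called by edgeR. In Δpph5 against the DD1 parent, 0 of 162 were called by edgeR, while 0.0112% of all genes tested were called. DESeq2 called 1 end gene, higher, and 18 end genes (11.1%) had an unadjusted edgeR p under 0.05, against 6.35% of the remaining genes. The lowest adjusted p among end genes was 0.561, and the median log2 fold change was −0.02 over the end genes and 0.02 over the remaining genes. In Δpph5-2 against the DD3 parent, 0 of 162 were called by edgeR, while 0.0112% of all genes tested were called. DESeq2 called 2 end genes, both higher, and 26 of the 162 had an unadjusted edgeR p under 0.05, against 8.47% of the remaining genes. The lowest adjusted p was 0.279 and the median log2 fold change 0.21 over the end genes, against 0.00 over the remaining genes. A p above the threshold does not show that these genes were unaltered.

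The responses to the loss of pp2A and of pph5-2 differed in more end genes than the background. The difference of the 2 responses, each taken against the parent of its own tag, was called in 14 of 162 end genes (8.64%), and in 3.65% of all genes tested. It was negative in 11 (6.79%) and positive in 3 (1.85%), against 2.13% and 1.51% of all genes tested. Its median was −0.89 on the log2 scale over the end genes and −0.04 over the remaining genes. This count rests on few parent libraries: without DD3 parent replicate 1 it was 1, without DD3 parent replicate 2 it was 2, and without Δpp2A replicate 3 it was 22. It was 7 without Δpp2A replicate 1 or without replicate 4, and 9 without Δpp2A replicate 2 or without Δpph5-2 replicate 2. With scaling by library size alone it was 10, 5 in each direction.

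End genes also varied more than other genes between libraries of the same group. The share of genes over 4-fold apart (log2 CPM with a prior count of 2) was taken for each of the 17 library pairs within a group. It was 0.833 to 14.6% in the end genes and 0.537 to 8.09% in the remaining genes, and it was higher in the end genes in all 17 pairs. The mean over pairs was 6.96% in the end genes and 2.81% in the remaining genes. Among genes of at least 10 CPM per kb it was 9.02% and 1.86%, so the spread was not limited to genes of low count. Pairs share libraries, and no test was made. Within Δpp2A, the 3 pairs with replicate 3 had 9.17%, 9.58% and 7.08% of the end genes over 4-fold apart, against 0.833 to 2.92% in the other pairs. The 2 DD1 parents were apart in 10.8% of the end genes and 7.34% of the remaining genes, and the 2 DD3 parents in 4.58% and 2.86%.

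**Figure D5:**
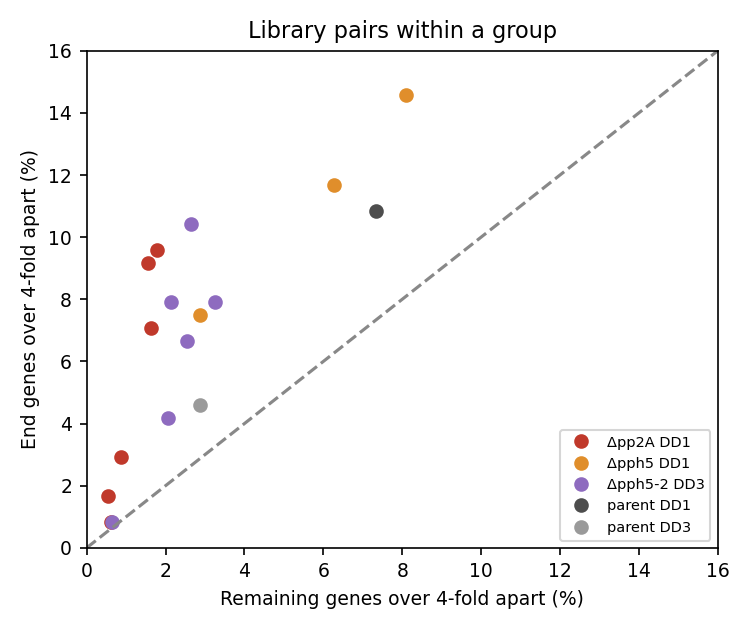
Percentage of end genes (vertical axis) and of remaining genes (horizontal axis) that were over 4-fold apart between libraries of the same group. Each point is a library pair, coloured by group, and the dashed line marks equal shares. All 17 pairs lie above the line.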

How the data were processed

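The deposited table holds the authors' raw read counts per gene and the gene length, with 1 column per library. The submitters' processing notes name HISAT2 2.2.1, and the table has the layout of featureCounts output. The libraries were stranded and depleted of ribosomal RNA, per the labels' protocols. No label or header states the genome build, the annotation or whether counting used strand. Reads of overlapping genes or near-identical copies may therefore have gone to either or not been counted. Of the table's identifiers, 0 matched the reference table used here, so no names, roles or sequences are given. The 3 rows of another form had 0 counts.

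The deposited counts were tested for differences with edgeR 4.0.16 (R 4.3.3). Genes were filtered by filterByExpr over the 5 groups, scaled by TMM and fitted by robust quasi-likelihood, 1 mean per group, over all 15 libraries, and p-values were adjusted over the 8912 genes tested (Benjamini-Hochberg, 0.05). SE is the size of the log2 fold change divided by the square root of F. Levels are TMM-scaled CPM divided by length in kb. Floors of 3 counts cover counting error only. Alternatives were other scalings, filters, end sizes and length limits, DESeq2 1.42.0, other prior counts, a replicate block and leaving out each library. Genes were named by rule: per contrast, up to 2 in each direction by log2 fold change among called genes that averaged 10 CPM or more in 1 group and whose groups did not overlap, the 4 of highest level, the outermost of each end, and the 2 with the widest range over parents. The members, lists and rules were chosen with earlier results of these data known.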

Additional observations from a re-analysis of the deposited data

Results flagged for a closer look

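Distant libraries were sought in 24 sets of 4 libraries, and 7 were found. About 1.2 would be expected by chance in independent sets. These sets share libraries and genes, and TrG0015C and TrG0016W were named partly for their spread over parents, so the 7 cannot be set against that value. In 5 of the 7 the distant library was Δpp2A replicate 3. Its share of counts in end genes was 0.685%, against 0.288 to 0.308% in the other Δpp2A libraries. It had 1618 TMM-scaled CPM of TrG1206C, 816 CPM of TrG1195C, 744 CPM of TrG0019C and 128 CPM of TrG0018C, each above the other 3 Δpp2A libraries and below the parents. The other distant library was Δpph5-2 replicate 4, with 231 CPM of TrG0015C and 516 CPM of TrG0016W, against at most 14.5 and 49.5 CPM in the other Δpph5-2 libraries.

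A group of 3 named genes responded differently to the loss of pp2A and of pph5-2, by edgeR's test of the difference between the responses. The 3 were named for called differences of the Δpp2A libraries, which also enter this test, so the naming favours a call. TrD0016C (adjusted p = 0.00558) and TrG0010C (adjusted p = 0.0135) had a higher response in Δpp2A, and TrG0018C (adjusted p = 0.0443) a lower one. Without DD3 parent replicate 1 all 3 calls were lost (adjusted p = 0.0700, 0.0692 and 0.199, in the order named, edgeR). Without DD3 parent replicate 2 that of TrD0016C held (adjusted p = 0.0119) and the other 2 were lost (0.0535 and 0.218). The call of TrG0018C was lost in 11 of 15 such fits.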

How the results depend on the processing

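No called result changed direction in the settings that were run, but the median for Δpph5, −0.02 with all libraries, was above 0 in several of them. Leaving out single libraries moved the number of called end genes between 26 and 53 for Δpp2A against the DD1 parent, 43 and 78 for Δpp2A against Δpph5, and 1 and 22 for the difference of the responses. It stayed at 0 for Δpph5 and for Δpph5-2. The median log2 fold change ranged from −0.64 to −0.13 for Δpp2A, −0.71 to −0.38 against Δpph5, −1.15 to −0.31 for the difference of the responses, −0.10 to 0.21 for Δpph5 and 0.16 to 0.43 for Δpph5-2. The median level ranged from 1.36 to 1.53 CPM per kb.

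The median for Δpp2A was −0.26 with scaling by library size alone (remaining genes 0.28), −0.35 without a filter, −0.39 with only the libraries compared and −0.46 with all parents as 1 group. With 10, 30 or 50 numbers per end it was −1.01, −0.41 and −0.049, with 21, 73 and 112 genes called of 70, 264 and 487. Against Δpph5 the median was −0.22 by library size alone, −0.30 without a filter, and −0.80, −0.36 and −0.11 with 10, 30 or 50 numbers, with 34, 102 and 177 genes called. For the difference of the responses, DESeq2 called 32 genes. With all parents as 1 group the parent cancels out of this difference. That fit therefore compared Δpp2A directly with Δpph5-2, across tags, and is no variant of the same comparison. It called 56 genes (median −0.49). With 10 numbers the difference of the responses was called in 9 genes, and with 50 numbers in 30. Its medians were −1.33, −0.57 and −0.24 with 10, 30 and 50 numbers and −0.64 by library size alone. Among genes of at least 10 CPM per kb, an alternative chosen after seeing the data, 23, 34 and 5 genes were called in these comparisons, and the median of the difference was −0.70. For Δpph5, DESeq2 called 1 gene, and the median was 0.10 with all parents as 1 group, 0.086 with 50 numbers and 0.089 at 10 CPM per kb or more. For Δpph5-2, DESeq2 called 2, 30 and 50 numbers gave 1 each, and the median was 0.10 with all parents as 1 group. The median level was 2.14 and 3.43 CPM per kb with 30 and 50 numbers. With 50 numbers 84.4% of the end genes had a count. With a prior count of 0.5, 15.4% of the end genes and 6.83% of the remaining genes were over 4-fold apart. The cause of these changes was not tested. Other counts of called genes in this section stand without the share of remaining genes, so they do not show an excess at the ends.

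Same-numbered replicates of the groups compared did not all deviate together: correlations of deviations were −0.185 and 0.163 for Δpp2A and the DD1 parent, −0.725 and −0.555 for Δpph5 and the DD1 parent, −0.220 and 0.242 for Δpph5-2 and the DD3 parent, and −0.127 to 0.229 for Δpp2A and Δpph5. The parents of both tags, which enter the difference of the responses, correlated at 0.744 by number. With a replicate block 45 end genes were called for Δpp2A (14 higher, 31 lower), 57 against Δpph5 (median −0.32), 8 for the difference of the responses, and 0 for Δpph5 and Δpph5-2. With the block TrG1206C was at −4.57 (adjusted p = 0.0383), TrG1195C at −4.32 (0.0425) and TrG0019C at −4.90 (0.0349), by edgeR. Parents have only replicates 1 and 2, so under the block Δpp2A replicate 3 has no parent of its number. The 2 parent libraries of a tag deviate from their mean in opposite ways. The −0.725 of Δpph5 replicate 1 with DD1 parent replicate 1 is thus 0.725 with replicate 2, which is no further observation. The calls with the block are therefore no independent support. The calls of TrG0015C and TrG0016W were each lost in 12 of 23 alternatives, among them upper-quartile scaling (adjusted p = 0.0507 and 0.0545, edgeR) and no filter (0.0604 and 0.0659). Low depth limits the 78 end genes that were not tested.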

Other observations

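TrA0001W, the lowest number of series A, was left out of the end genes for its length of 9003 and was chosen here after its values were seen. It averaged 898 TMM-scaled CPM in Δpp2A, 35.4 CPM in Δpph5 and 43.8 CPM in Δpph5-2, against 37.8 CPM in the DD1 parents and 35.0 CPM in the DD3 parents. The log2 fold change of Δpp2A against the DD1 parent was 4.57 ± 0.26 (SE, edgeR adjusted p = 9.29e-07).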
